A study of Gallus gallus with 12 samples.

Results

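The neuronal cell adhesion molecules NRCAM, NCAM1, CNTN2, L1CAM and ALCAM were followed in chick neural tube cells that had received NEUROG2, the form NEUROG2AQ, or a control vector. Members were all probe sets that the platform annotation assigns to 1 of these 5 genes. The rule found 10 probe sets among the 38535 in the table: 1 for CNTN2, 2 for NRCAM, 3 for NCAM1 and 4 for ALCAM. No probe set carried the symbol L1CAM, so that gene was not analysed here. All 10 were among the 37693 chicken probe sets that were tested, and no filter on low values removed any of them.

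Embryos at stages HH10 to HH11 were electroporated in ovo with pCIGNEUROG2-GFP, with pCIGNEUROG2AQ-GFP or with the control vector pGIG-GFP. The series text gives 11 to 15 somites at that time and the growth protocol gives 13 to 15. GFP-positive cells were sorted 6 hours later, and each array held RNA of the pooled neural tubes of 20 embryos, with 4 biological replicates per group (12 Affymetrix arrays). All 3 groups thus carry an electroporated vector and GFP, and a pool averages over its embryos. The labels name neither the promoter that drives the inserts nor the change in NEUROG2AQ. Elsewhere AQ has been used for a version changed in the DNA-contacting basic region.

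These genes encode immunoglobulin-domain proteins of the cell surface. NRCAM and L1CAM belong to the L1 family, whose cytoplasmic tails bind ankyrins and so tie the membrane to the spectrin skeleton. CNTN2, called axonin-1 in chick and TAG-1 in rodents, is held in the membrane by a lipid anchor and has no cytoplasmic part. It appears on early axons, among them the commissural axons of the spinal cord, and binds NRCAM on the floor plate, an interaction known from work on chick commissural axons. NCAM1 binds itself on neighbouring cells, and polysialic acid added to it weakens that binding. ALCAM, known in chick as SC1, BEN or DM-GRASP, is found on motor neurons and their axons and on the floor plate, and binds both itself and other members of the superfamily. NEUROG2, a proneural transcription factor, drives neural progenitors to become neurons.

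As a check of labels, the array's NEUROG2 probe set read 4.10, 3.92, 3.69 and 3.89 in NEUROG2 arrays, 4.66, 4.77, 4.56 and 4.57 in NEUROG2AQ arrays, and 6.07, 5.61, 5.28 and 5.33 in controls. It was thus lower with either expression plasmid and does not check the labels. Whether its probes can read the plasmid's transcript was not tested, and every direction given here rests on the labels as deposited. SOX2, which marks neural progenitors and so the labelled tissue, was above the array median on every array, at 5.09 to 5.45 with NEUROG2, 4.78 to 5.53 with NEUROG2AQ and 5.66 to 6.46 in controls. Control replicate 1 and NEUROG2AQ replicate 4 stood apart on the second principal component, at 52.3 and 30.2. Control replicate 3 lay at its other end, at -30.9, and the remaining arrays at -16.5 to 4.1. Somite markers averaged 4.55 in control replicate 1 against at most 3.84 in any other array, and none of 8 passed in NEUROG2 against control. Of the blood and endothelium, surface ectoderm, and endoderm and lateral plate lists, 1 of 7, 1 of 5 and 0 of 6 fell there and none rose. Beside these, 5.37% of all genes fell and 5.21% rose. FLT1, the blood and endothelium gene that fell, lay below the array median on every array. The mean of that list was 3.05 in control replicate 4 against at most 2.65 in any other array. Its gene HBZ read 8.97 in control replicate 4 and 4.46 to 7.02 elsewhere. Control replicate 4 also held the highest values of the first NRCAM and the first ALCAM probe set. The part of blood cells in those values was not tested.

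CNTN2 rose with NEUROG2 and NRCAM fell, while no probe set of NCAM1 or ALCAM passed the test. Against control, the CNTN2 call held in all 22 refits under other settings, and those of the NRCAM probe sets in 16 and 8 of 22. With NEUROG2AQ none of the 10 probe sets passed. Values are the authors' log2 signals, in which a difference of 1 is a doubling. The test was limma's moderated test over all 12 arrays, with Benjamini-Hochberg adjustment over all 37693 probe sets and a threshold of 0.05. In NEUROG2 against control 3 of the 10 probe sets were called, 1 higher and 2 lower, beside 6.67% of all probe sets tested, 3.3% higher and 3.38% lower. Both lower calls were NRCAM, so 2 of the 4 measured genes were called, beside 10.6% of all genes at 1 probe set per gene. The members were chosen with earlier results of these data known, so such shares are a description. In NEUROG2 against NEUROG2AQ 2 of the 10 probe sets were called, 1 higher and 1 lower, beside 6.06% of all, 3.67% higher and 2.39% lower. In NEUROG2AQ against control limma called 0 of the 10, beside 0.0663% of all, 0.00796% higher and 0.0584% lower, and 0 had an unadjusted p below 0.05. The 3 comparisons share arrays, so they are not independent of each other.

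The array medians of the tested probe sets lay between 2.81 and 2.90. The table holds no call of detection, so fold changes at levels near or below those medians are of uncertain size. By their suffixes on this platform, the first NRCAM, the first and the second NCAM1 and the fourth ALCAM probe sets hold probes that match several transcripts. Probes of different genes differ in response, so levels are compared between groups and not between genes. The sequences of the probes, promoters and proteins were not used here.

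**Figure D1:**
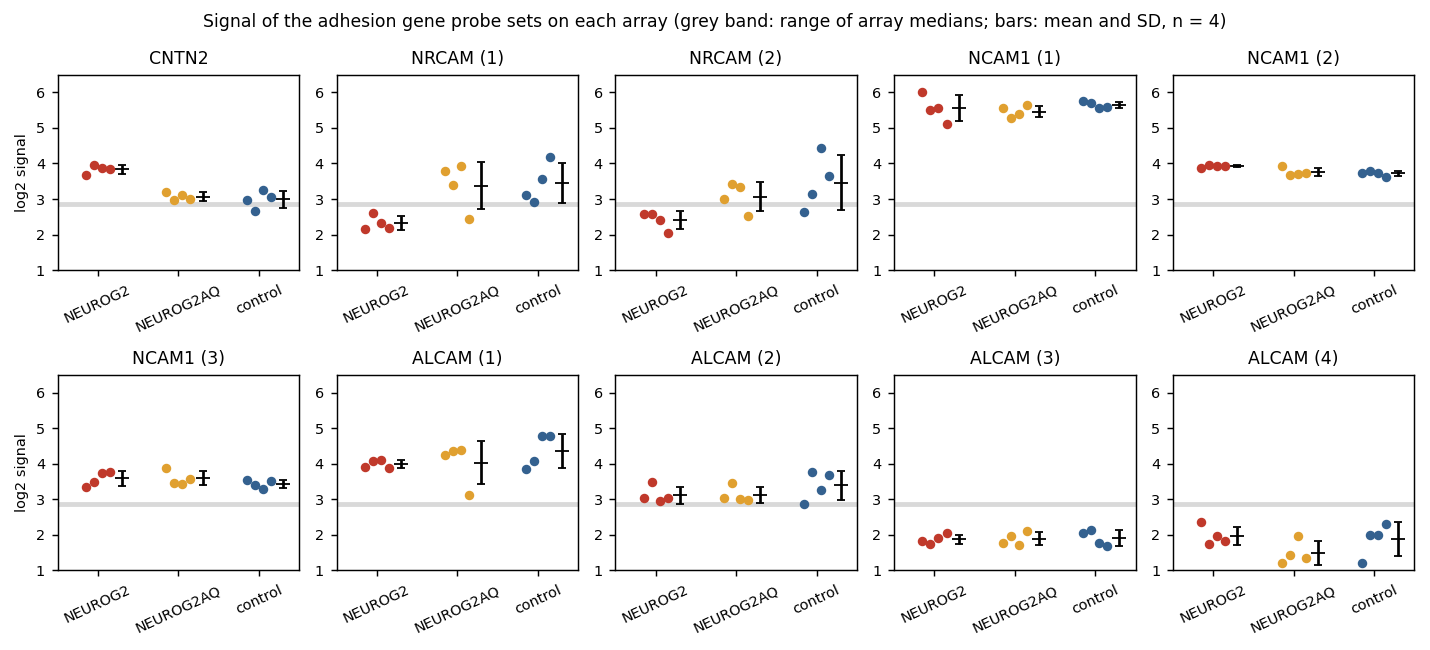
Log2 signal (y axis) of each of the 10 probe sets on every array, by group (x axis: NEUROG2, NEUROG2AQ and control, 4 arrays each); probe sets of a gene are numbered from the highest mean down, black bars give mean and SD, and the grey band spans the array medians of 2.81 to 2.90. The CNTN2 values of NEUROG2 arrays sit above those of both other groups, and the NRCAM values of NEUROG2 arrays all lie below the band.

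CNTN2, the contactin of early axons, was measured by 1 probe set. It read 3.67, 3.97, 3.87 and 3.85 in the NEUROG2 arrays. It read 3.21, 2.96, 3.11 and 2.99 in the NEUROG2AQ arrays. It read 2.98, 2.67, 3.26 and 3.06 in the control arrays. Every NEUROG2 array was thus above every array of both other groups, and the NEUROG2AQ values lay within the control range.

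The CNTN2 signal averaged 3.84 ± 0.13 with NEUROG2, 3.07 ± 0.12 with NEUROG2AQ and 2.99 ± 0.25 in controls (SD, n = 4 each). It rose by 0.85 ± 0.12 with NEUROG2 relative to control (log2 difference ± SE), which is 1.8-fold with a 95% interval of 1.5 to 2.16 (limma adjusted p = 0.000371). Relative to NEUROG2AQ the NEUROG2 arrays were higher by 0.77 ± 0.12, or 1.71-fold (limma adjusted p = 0.000831). NEUROG2AQ differed from control by 0.08 ± 0.12, with an interval of -0.18 to 0.34 (limma adjusted p = 0.949). In order of level, NEUROG2 came first, and NEUROG2AQ and control did not differ beyond their spread. Both CNTN2 calls held in each of 22 refits under other settings, with adjusted p up to 0.00257 against control and up to 0.00444 against NEUROG2AQ, but neither reaches a log2 difference of 1, so both are lost where that much is required. Since these are bulk samples of sorted cells, more transcript per cell and more cells that express CNTN2 cannot be told apart. Because CNTN2 in the other 2 groups lay close to the array medians, the fold is of uncertain size.

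Most markers of young neurons rose with CNTN2 in the comparisons that hold NEUROG2. Of 8 measured markers 6 rose in NEUROG2 against control and 6 in NEUROG2 against NEUROG2AQ, beside 5.21% and 5.55% of all genes. Their mean log2 signal per array was 7.11 to 7.34 with NEUROG2, 5.28 to 5.54 with NEUROG2AQ and 5.55 to 5.74 in controls. In NEUROG2AQ against control 1 of the 8 fell, beside 0.0923% of all genes, and their mean lay below every control array. The marker that fell was TAGLN3, by 1.06 ± 0.15 (limma adjusted p = 0.0161), and the other 7 did not pass. CNTN2 differed there by 0.08 ± 0.12. The part of young neurons in the CNTN2 difference was not tested.

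NRCAM, the L1-family receptor that also serves as a partner of CNTN2, went the other way. Of its probe sets, the one of higher mean read 2.16, 2.60, 2.32 and 2.19 in NEUROG2 arrays. It read 3.79, 3.40, 3.92 and 2.43 in NEUROG2AQ arrays. It read 3.10, 2.93, 3.57 and 4.19 in control arrays. The NEUROG2 arrays lay below every control array, while NEUROG2AQ replicate 4 fell inside the NEUROG2 range and apart from the 3 other NEUROG2AQ arrays.

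The second NRCAM probe set read 2.58, 2.59, 2.41 and 2.05 in NEUROG2 arrays. It read 3.0, 3.41, 3.35 and 2.53 in NEUROG2AQ arrays. It read 2.63, 3.15, 4.43 and 3.64 in control arrays. Here too all NEUROG2 arrays were below all controls, but the gap between the closest arrays was small. The 2 probe sets correlated with r = 0.77 over the 12 arrays, which share the group differences and the hybridisations.

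The first NRCAM probe set averaged 2.32 ± 0.20 with NEUROG2, 3.38 ± 0.67 with NEUROG2AQ and 3.45 ± 0.56 in controls (SD, n = 4 each). With NEUROG2 it fell by 1.13 ± 0.30 on the log2 scale relative to control (limma adjusted p = 0.0315), to 0.457 of the control signal with a 95% interval of 0.295 to 0.709. The second averaged 2.41 ± 0.25, 3.07 ± 0.40 and 3.46 ± 0.77 in the same order of groups, and it fell by 1.06 ± 0.30 (limma adjusted p = 0.045). Against NEUROG2AQ the first probe set fell by 1.07 ± 0.30 (limma adjusted p = 0.0452), and the second differed by -0.67 ± 0.30 without passing (limma adjusted p = 0.273). NEUROG2AQ differed from control by -0.06 ± 0.30 for the first, with an interval of -0.69 to 0.57, and by -0.39 ± 0.30 for the second, with an interval of -1.02 to 0.24. As folds these intervals run from 0.618 to 1.48 and from 0.492 to 1.18, so a p above the threshold does not show equal levels. All 4 NEUROG2 arrays lay below their own array median for both probe sets, so the NRCAM fold changes are of uncertain size.

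Leaving out single arrays changed the NRCAM calls. In NEUROG2 against control, the first probe set no longer passed without control replicate 3 (adjusted p = 0.0727) or 4 (0.0989), or without NEUROG2 replicate 1 (0.0829), 3 (0.0805) or 4 (0.0914). The second no longer passed in 10 of 12 fits that leave out 1 array, with adjusted p up to 0.147 and a difference of -0.73 without control replicate 3, and passed without control replicate 1 or NEUROG2AQ replicate 4. It also lost its call with trend and robust moderation (0.0676), with the 2 groups alone (0.0775) and with cyclic loess (0.0538), and kept it in 8 of 22 refits in all. In NEUROG2 against NEUROG2AQ the first probe set passed in 4 of 12 such fits that leave out 1 array, those without control replicate 1, 2 or 4 or NEUROG2AQ replicate 4, with adjusted p up to 0.156 over all 12. The second, not called there as reported, passed with the 2 groups alone (0.0456). With control replicate 1 and NEUROG2AQ replicate 4 both left out, a setting added after seeing the data, the first passed at 0.00251 against control and 0.00114 against NEUROG2AQ, and the second at 0.00182 and 0.0382. For both probe sets NEUROG2AQ replicate 4 was the lowest of its group and control replicate 1 lay below the control mean. Leaving out control replicate 1 thus enlarges the NRCAM differences from control by construction, and leaving out NEUROG2AQ replicate 4 those from NEUROG2AQ. NEUROG2AQ replicate 4 does not enter the differences from control, but it adds to the spread that the test pools over the 3 groups. Control replicate 3, at the other end of the second principal component, was kept in that setting. The stronger calls are thus no separate support.

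A measure of RNA quality moved with NRCAM among the NEUROG2AQ arrays. The 3' minus 5' log2 signal of the actin and EF1A control probe sets, which grows as RNA is degraded, was 1.59 to 1.90 in NEUROG2 arrays. It was 2.03 to 2.14 in 3 NEUROG2AQ arrays and 1.52 in NEUROG2AQ replicate 4, the array with low NRCAM. In controls it was 1.72 to 1.98. With this measure as a covariate, a setting added after seeing the data, the first NRCAM probe set still passed in NEUROG2 against control, at -1.0 and adjusted p = 0.00736. In NEUROG2 against NEUROG2AQ its difference was then -0.64 and did not pass (adjusted p = 0.149), and the second probe set did not pass in either comparison (adjusted p = 0.0572 and 0.518). Apart from NEUROG2AQ replicate 4, every NEUROG2AQ array exceeded every NEUROG2 array in this measure. Between these groups, RNA quality and the group itself can therefore hardly be told apart. The CNTN2 difference from control was 0.86 under the same covariate and passed (adjusted p = 0.000509).

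Markers of other cells were read beside NRCAM. Counting 1 probe set per gene, 5.37% of all genes fell and 5.21% rose in NEUROG2 against control. Of 7 neural crest markers 4 fell and none rose there, and their mean log2 signal was 5.62 to 5.94 with NEUROG2 against 6.31 to 6.68 in controls. The neural crest factor SOX10 was 3.94 to 4.51 with NEUROG2, 5.37 to 5.97 with NEUROG2AQ and 5.40 to 6.03 in controls. Of 6 notochord and floor plate markers 1 fell, NOG, by 0.59 ± 0.15 (limma adjusted p = 0.0247). The mean of the 6 was 4.07 to 4.48 with NEUROG2 against 4.19 to 5.20 in controls. The 5.20 was control replicate 1, and the other controls lay at 4.19 to 4.49. Of the floor plate genes, the factor FOXA2 was 2.93 to 3.74 with NEUROG2 and 3.44 to 4.92 in controls, a difference of -0.84 ± 0.25 that did not pass (limma adjusted p = 0.0605). Its 4.92 too was control replicate 1, with the other controls at 3.44 to 4.11. SHH, the floor plate signal, was 2.97 to 3.47 with NEUROG2 and 2.67 to 3.77 in controls. Of 8 neural progenitor markers 3 fell, with a mean of 8.65 to 8.84 with NEUROG2 against 8.96 to 9.25 in controls. With NEUROG2AQ the means of the crest, floor plate and progenitor lists were 6.38 to 6.64, 4.12 to 4.40 and 8.70 to 8.83. FOXA2 was 3.01 to 3.52 and SHH 2.68 to 3.27 with NEUROG2AQ. None of these markers passed in NEUROG2AQ against control. FOXA2 and the mean of the progenitor list were thus about as low with NEUROG2AQ as with NEUROG2. Single progenitor genes differed between these groups. In NEUROG2 against NEUROG2AQ PAX6 was called lower, at -0.80 ± 0.12. NES and VIM were called higher there, at 0.72 ± 0.16 and 0.35 ± 0.09, and the 5 others did not pass. In NEUROG2AQ arrays the first NRCAM probe set differed from control by -0.06 ± 0.30 and the second by -0.39 ± 0.30. The part of crest, floor plate and progenitor cells in the NRCAM difference was not tested.

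**Figure D2:**
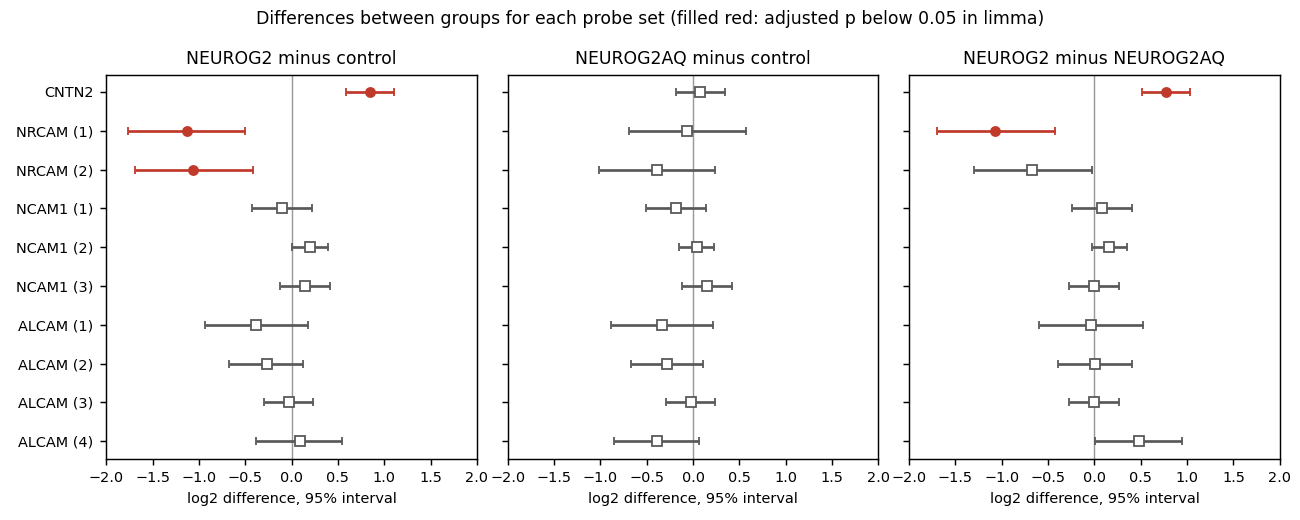
Log2 difference (x axis) with its 95% interval from limma for each of the 10 probe sets (y axis) in the 3 comparisons, with filled red points for those past an adjusted p of 0.05. CNTN2 lies at 0.85 and 0.77 in the 2 comparisons that hold NEUROG2, both NRCAM probe sets lie below 0 there, and no point is filled in NEUROG2AQ minus control.

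NCAM1, the homophilic adhesion molecule, had 3 probe sets, the first of which was well above the array medians. That probe set read 6.02, 5.51, 5.55 and 5.11 in NEUROG2 arrays. It read 5.56, 5.27, 5.40 and 5.63 in NEUROG2AQ arrays. It read 5.75, 5.69, 5.55 and 5.60 in control arrays. The NEUROG2 values spread on both sides of the controls, and all 3 groups overlapped.

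For NCAM1 the first probe set differed by -0.10 ± 0.15 in NEUROG2 against control, with a 95% interval of -0.43 to 0.22, or 0.744 to 1.17-fold (limma adjusted p = 0.828). In NEUROG2AQ against control it differed by -0.18 ± 0.15, with an interval of -0.51 to 0.14. The second probe set read 3.88, 3.95, 3.92 and 3.92 with NEUROG2. It read 3.92, 3.67, 3.70 and 3.74 with NEUROG2AQ, and 3.73, 3.80, 3.72 and 3.61 in controls. The NEUROG2 and control arrays did not overlap there, but the difference was small, at 0.20 ± 0.09, and did not pass (limma adjusted p = 0.263). Groups did not overlap for 4 of the 10 probe sets in this comparison, beside 11.1% of all tested. The third probe set ranged from 3.34 to 3.77 with NEUROG2, from 3.43 to 3.88 with NEUROG2AQ and from 3.30 to 3.54 in controls, with differences of 0.15 ± 0.13 in both comparisons with control. The NCAM1 probe sets did not vary together. Over the 12 arrays the first had r = 0.01 with the second and -0.36 with the third, and the r of those other two was 0.50.

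NCAM1 thus kept no order of groups beyond the spread, and under none of the alternatives did any of its probe sets pass. ST8SIA2, 1 of the enzymes that add polysialic acid to NCAM1, was 3.15 to 3.81 with NEUROG2, 2.64 to 3.24 with NEUROG2AQ and 2.77 to 3.52 in controls. Each of these ranges overlaps with both others.

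ALCAM was best measured by its first probe set. It read 3.91, 4.08, 4.10 and 3.87 in NEUROG2 arrays. It read 4.24, 4.36, 4.40 and 3.12 in NEUROG2AQ arrays. It read 3.85, 4.07, 4.77 and 4.78 in control arrays. The controls fell into a low and a high pair, the NEUROG2 arrays lay beside the low pair, and NEUROG2AQ replicate 4 was the lowest of all.

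The first ALCAM probe set averaged 3.99 ± 0.12 with NEUROG2, 4.03 ± 0.61 with NEUROG2AQ and 4.37 ± 0.48 in controls (SD, n = 4 each). It differed from control by -0.38 ± 0.26 with NEUROG2, with an interval of -0.93 to 0.18 (limma adjusted p = 0.532), and by -0.34 ± 0.26 with NEUROG2AQ, with an interval of -0.89 to 0.22 (limma adjusted p = 0.869). When control replicate 1 and NEUROG2AQ replicate 4 were both left out, the NEUROG2 difference was -0.55 and passed (limma adjusted p = 0.0349). Control replicate 1 was the lowest control for this probe set, so leaving it out enlarges that difference by construction. With 1 array left out the difference also reached -0.55, but no such fit passed (limma adjusted p of 0.239 or more). NEUROG2AQ replicate 4 does not enter this difference, but it enters the spread that the test pools over the 3 groups. Without NEUROG2AQ replicate 4 alone, the NEUROG2AQ difference was -0.03. The second probe set read 2.94 to 3.48 with NEUROG2, 2.97 to 3.46 with NEUROG2AQ and 2.88 to 3.76 in controls, with differences from control of -0.27 ± 0.18 and -0.28 ± 0.18. The third and the fourth lay below the array median on every array, at 1.69 to 2.14 and at 1.20 to 2.35 over all 12 arrays, so any difference there is of uncertain size. The first ALCAM probe set had r = 0.47 with the second, -0.67 with the third and 0.43 with the fourth over the 12 arrays.

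Across the 12 arrays the first ALCAM and NRCAM probe sets had r = 0.72, and both were highest in control replicate 4. CNTN2 had r = -0.56 with NRCAM and -0.07 with ALCAM, and NCAM1 had r between -0.18 and -0.13 with the other 3 genes. These correlations describe arrays that share treatment and sample quality and carry no test.

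Patterns most like each member were sought among 7254 genes, each by its probe set of highest mean and with a mean log2 signal of at least 4. For CNTN2 these were AGT, the precursor of angiotensin (r = 0.966), the water channel gene AQP1 (0.961) and the tyrosine sulphotransferase gene TPST1 (0.950). For NRCAM they were the tubulin glutamylase gene TTLL11 (0.931), the growth factor receptor gene FGFR3 (0.921) and UBP1 (0.913). For ALCAM they were ATXN7L1 (0.950), the export pump gene ABCC1 (0.935) and the ion cotransporter gene SLC12A2 (0.935). For NCAM1 the closest were lower, with DAGLA at 0.818, TKTL1 at 0.808 and TSPO at 0.772. Each r is Pearson's over the 12 arrays and a description.

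The related genes of the L1, contactin and NCAM families gave 1 rise in 8 genes in NEUROG2 against control and no fall, with a median difference of 0.14 beside 0.01 over all genes. Counting 1 probe set per gene, 10.6% of all genes were called in that comparison, 5.21% higher and 5.37% lower. The gene that rose was NFASC, or neurofascin, an L1-family relative of NRCAM that binds ankyrin at axon initial segments. It read 8.49, 8.74, 8.64 and 8.66 with NEUROG2, 6.32, 6.48, 6.77 and 6.31 with NEUROG2AQ and 6.89, 6.89, 6.94 and 6.96 in controls. Every NEUROG2 array was far above all others.

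NFASC rose by 1.71 ± 0.11 relative to control, 3.28-fold (limma adjusted p = 1e-07), and by 2.17 ± 0.11 relative to NEUROG2AQ (limma adjusted p = 6.32e-09). It was thus an L1-family gene that rose in the comparison in which NRCAM fell, though the NRCAM calls there were lost without certain single arrays. Another NFASC probe set rose as well, by 1.63 ± 0.15, and the remaining one differed by 0.09 ± 0.10 and did not pass (limma adjusted p = 5.15e-06 and 0.752). In NEUROG2AQ against control none of the 8 relatives passed, with NFASC at -0.45 ± 0.11 and CNTN4 at -0.26 ± 0.12. NFASC and CNTN2 are neighbours in the RefSeq gene order of assembly GRCg7b. Of the 8 protein-coding genes that flank the 4 measured members there, NFASC alone passed in NEUROG2 against control, beside 10.6% of all genes. Of the 8 relatives 5 were below the array median on all 12 arrays, namely CNTN1 (0.92 to 1.31), CNTN3 (1.53 to 2.08), CNTN5 (1.32 to 1.76), CNTN6 (1.68 to 2.31) and NCAM2 (1.0 to 1.67), so the count of 1 rise in 8 rests on few genes with clear signal. CNTN4 passed in NEUROG2 against NEUROG2AQ, at 0.49 ± 0.12 (limma adjusted p = 0.0242), where NFASC also rose, and the CNTN4 call was lost without NEUROG2 replicate 2 or 4 or NEUROG2AQ replicate 2 or 4, with adjusted p up to 0.0836, under the replicate block (0.0515) and with the mean of its probe sets (0.538).

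Of 22 measured genes among the other immunoglobulin adhesion molecules 4 rose, 2 fell and 16 did not pass in NEUROG2 against control, with a median difference of 0.08 beside 0.01 over all genes. Of all genes 5.21% rose and 5.37% fell there. KIRREL3, a synaptic recognition molecule, rose by 1.49 ± 0.21, the IgLON members LSAMP and NTM by 0.92 ± 0.12 and 0.84 ± 0.18, while BOC, a co-receptor for hedgehog, fell by 0.80 ± 0.13 (limma adjusted p of 0.00035, 0.000102, 0.0083 and 0.000938). All 4 calls held in each of 22 refits, with NTM at 0.52 when its probe sets were averaged. Among these 4 probe sets as reported, only that of KIRREL3 differs by more than 1 on the log2 scale. Other probe sets of KIRREL3 and LSAMP rose by 1.24 ± 0.14 and 1.19 ± 0.13, while those of NTM and BOC, at 0.21 ± 0.14 and -0.34 ± 0.13, did not pass. The KIRREL3 controls, at 2.98 to 3.84, lay close to the array medians, so its fold is of uncertain size. In NEUROG2 against NEUROG2AQ 3 rose and none fell, beside 9.69% of all genes called, 5.55% higher and 4.14% lower. They were KIRREL3 (1.31 ± 0.21), LSAMP (0.90 ± 0.12) and the netrin receptor gene NEO1 (0.55 ± 0.11). In NEUROG2AQ against control none of the 22 passed limma's test, beside 0.108% of all genes, 0.0154% higher and 0.0923% lower. BOC, at -0.53 ± 0.13, and NTM, at 0.37 ± 0.18, had the largest differences there (limma adjusted p = 0.264 and 0.729).

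**Figure D3:**
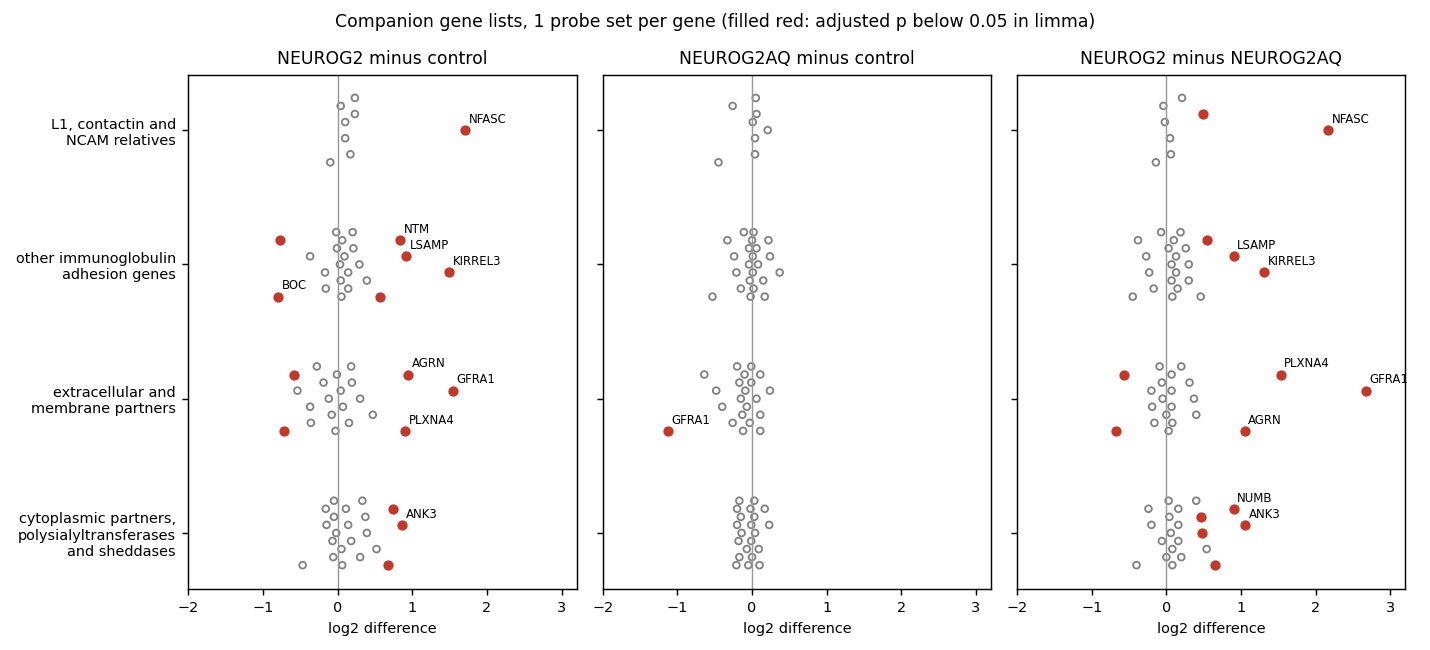
Log2 difference (x axis) of each measured gene in 4 lists of related adhesion genes and partners (y axis; vertical scatter within a list has no meaning) in the 3 comparisons, with filled red points for an adjusted p below 0.05 in limma and names for called genes that differ by at least 0.8. NFASC stands at 1.71 and 2.17 in the comparisons that hold NEUROG2, and GFRA1 is the gene called in NEUROG2AQ minus control.

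Partners outside the cell and in the membrane gave 3 rises and 2 falls among 21 measured genes in NEUROG2 against control. Of all genes 5.21% rose and 5.37% fell there. GFRA1, the GDNF co-receptor that can also signal through NCAM1, had 5.68 to 5.97 with NEUROG2, 2.59 to 3.48 with NEUROG2AQ and 3.78 to 4.59 in controls, so the 3 groups did not overlap. It rose by 1.54 ± 0.19 relative to control with NEUROG2 (limma adjusted p = 7.73e-05). With NEUROG2AQ it fell by 1.13 ± 0.19 (limma adjusted p = 0.0396), a call that held in 2 of 12 fits that leave out 1 array, those without control replicate 2 or NEUROG2AQ replicate 2, with adjusted p up to 0.124. That GFRA1 call was also lost with array weights (0.0593), the 2 groups alone (0.198), the replicate block (0.0953) and cyclic loess (0.0546). AGRN, or agrin, a matrix proteoglycan, rose by 0.94 ± 0.11 with NEUROG2, and by 0.33 with the mean of its probe sets, which still passed. The semaphorin receptor gene PLXNA4 rose by 0.90 ± 0.20, and the call was lost without NEUROG2 replicate 4 (adjusted p = 0.0545) and with the mean of its probe sets (0.113). Relative to NEUROG2AQ, 3 of these partners rose with NEUROG2 and 2 fell, beside 5.55% and 4.14% of all genes. Among them were GFRA1 (2.67 ± 0.19), PLXNA4 (1.53 ± 0.20), AGRN (1.05 ± 0.11) and CNTNAP1, a partner of contactins at the axon membrane, which fell by 0.68 ± 0.16. When probe sets were averaged per gene, PLXNA4 was higher by 0.51, AGRN by 0.34 and CNTNAP1 lower at -0.43, all still past the threshold. PLXNA4 read 2.25 to 3.04 with NEUROG2AQ, below the own array median on 3 of 4 arrays, and was below it on 1 control array. GFRA1 was below it on 1 NEUROG2AQ array. The PLXNA4 and GFRA1 folds are thus of uncertain size. The CNTNAP1 call was lost in 4 refits, with adjusted p up to 0.0668. In NEUROG2 against control FGFR2, of the receptor family through which NCAM1 and L1 proteins can act, fell by 0.72 ± 0.15.

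Among 21 cytoplasmic partners, polysialyltransferases and sheddases 3 rose and none fell in NEUROG2 against control, with a median of 0.11 beside 0.01 over all genes. Of all genes 5.21% rose and 5.37% fell there. ANK3, the ankyrin G gene whose product binds the tails of NRCAM and NFASC, read 8.01 to 8.59 with NEUROG2, 6.81 to 7.63 with NEUROG2AQ and 6.92 to 7.69 in controls. It rose by 0.86 ± 0.20 relative to control (limma adjusted p = 0.0134), without a call when NEUROG2 replicate 3 was left out (0.0562) or the mean of its probe sets was used (0.336). NUMB, an endocytic adaptor that takes part in L1 trafficking, rose by 0.74 ± 0.10, and DPYSL2, a tubulin-binding protein of growth cones, by 0.68 ± 0.10. The NUMB call was lost with the mean of its probe sets (0.294). Relative to NEUROG2AQ, 5 of the 21 rose with NEUROG2, beside 5.55% of all genes. Among them were ANK3 (1.06 ± 0.20), NUMB (0.90 ± 0.10), the microtubule protein gene DCX (0.65 ± 0.15), which is also in the list of young neuron markers, and the kinase gene FYN (0.48 ± 0.13). Of these, ANK3 and NUMB were lost with the mean of their probe sets (adjusted p = 0.084 and 0.103), and DCX in 4 and FYN in 6 refits. In NEUROG2AQ against control none passed, with DPYSL2 at 0.23 ± 0.10 and DCLK1 at -0.21 ± 0.12.

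**Figure D4:**
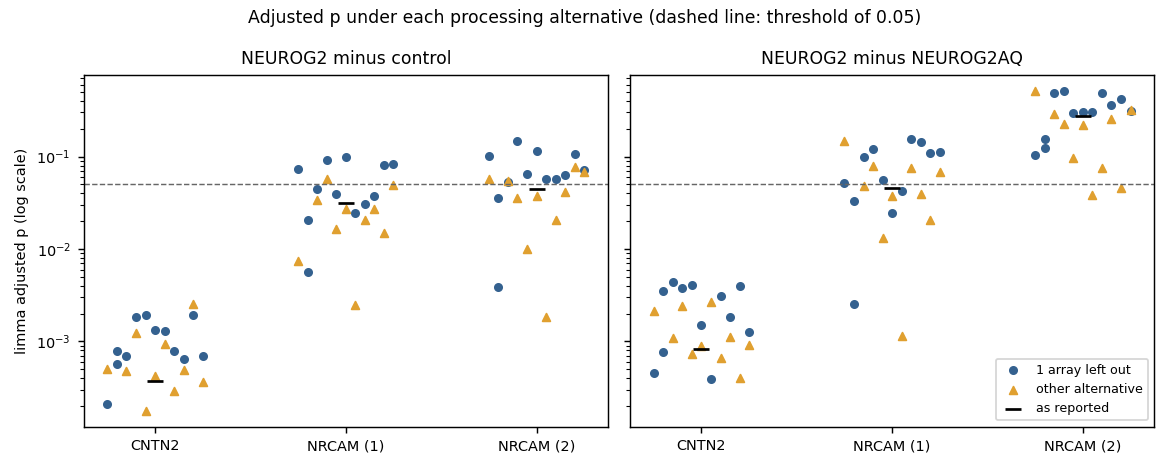
Adjusted p from limma (y axis, log scale) for CNTN2 and the 2 NRCAM probe sets (x axis) in NEUROG2 minus control and NEUROG2 minus NEUROG2AQ, with 1 point per processing alternative and a dashed line at 0.05. All CNTN2 points lie below the line, up to 0.00257 and 0.00444, while those of NRCAM lie on both sides of it.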

How the data were processed

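Log2 signals per probe set were deposited by the authors as 1 table for 12 Affymetrix chicken arrays; GCOS, RMA and affy appear with no version in the tools named per the submitters' processing notes. The labels say log signal, and base 2 was inferred from their range of 0.49 to 13.97. They were used as deposited. Chicken probe sets (37693) were fitted in limma 3.58.1 (R 4.3.3) with group as the only term over all 12 arrays, which leaves 9 residual degrees of freedom, and 842 others were left out. Two-sided p-values were adjusted by Benjamini-Hochberg. Symbols came from the platform's annotation, updated through gene identifiers with RefSeq's table of GRCg7b, which gave 27166 probe sets 1 symbol. In gene lists, each gene was read from the probe set with the highest mean, and a member's probe sets are numbered from the highest mean down. Members and lists were chosen with earlier results of these data known. Named were all members and, per list of related genes and comparison, up to 4 called genes of largest difference (2 where none passed). Per member, 3 genes of most similar pattern were named. Up to 2 defining genes per marker list were named. ST8SIA2, NOG, FOXA2, PAX6, NES, VIM, TAGLN3, FLT1, HBZ, CNTN1, CNTN3, CNTN5, CNTN6 and NCAM2 were chosen after their values were seen. Alternatives covered dim probe sets, variance moderation, weights, pairing, scaling, probe set averaging, a fold limit and each array left out. The procedure was tested on simulated data. Precision is limited by the 4 arrays per group.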

Additional observations from a re-analysis of the deposited data

Results flagged for a closer look

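Each of the 10 probe sets was checked in each group of 4 arrays for 1 array standing far from the other 3 (Dixon's test). Of 30 groups of values 2 had such an array, and chance alone gives about 1 in 20. The first ALCAM probe set read 3.12 in NEUROG2AQ replicate 4 and 4.24 to 4.40 in the other NEUROG2AQ arrays. The second ALCAM probe set read 3.46 in NEUROG2AQ replicate 2 and 2.97 to 3.05 in the others. The 2 outlying ALCAM values come from different arrays and run in opposite directions.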

How the results depend on the processing

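Whether replicate numbers pair the arrays was not settled. Deviations of same-numbered arrays from their group means correlated between -0.30 and 0.23. In 5 of 12 cases an array of the first group correlated best with its same-numbered array among the 4 of the second. In NEUROG2 against control this held for replicates 1, 2 and 4 (r = 0.18, 0.23 and 0.13). With replicate number as a block, 2 member probe sets were called in NEUROG2 against control (first NRCAM probe set at adjusted p = 0.0566), 1 in NEUROG2 against NEUROG2AQ and 0 in NEUROG2AQ against control. Of the 10, 3 are called in NEUROG2 against control as reported and 1 to 3 with 1 array left out, CNTN2 in all of them. In NEUROG2 against NEUROG2AQ, 2 as reported became 1 with trend and robust, with the replicate block, with probe sets averaged per gene (then a count of genes), under a limit of 1 on the log2 difference and with the 3'/5' covariate. It was 1 to 2 with 1 array left out. Under that limit the remaining call was NRCAM, and in NEUROG2 against control 2 of 3 calls remained, both NRCAM, since CNTN2 differs by less than 1. Over all probe sets, that limit left 537 of 2515 calls in NEUROG2 against control, 574 of 2286 in NEUROG2 against NEUROG2AQ and 14 of 25 in NEUROG2AQ against control. For the last, trend and robust gave 44, the 2 groups alone 8, and leaving out 1 array 10 to 30. Among the member probe sets and the called related genes named above, no call changed direction. Over all probe sets only counts were compared. Settings that left out control replicate 1 with NEUROG2AQ replicate 4, or added the covariate, were chosen after seeing the data. Apart from the values above, the cause of these shifts was not tested.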
